A study of Mus musculus with 36 samples.

Results

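The urea cycle genes described here are 10 named genes among the 53715 gene identifiers of a liver RNA-seq count table, and all 10 were found and passed the filter on low counts. They were taken by name as the enzymes of the cycle (Cps1, Otc, Ass1, Asl and Arg1), the enzyme that makes the activator of its first step (Nags), the mitochondrial carriers that serve it (Slc25a15 and Slc25a13), and a pair of enzymes that handle glutamate and aspartate (Glud1 and Got1). The livers came from male C57BL/6 mice 10 weeks old. Starting 4 weeks after birth they had eaten, for 6 weeks, the purified AIN93G diet (called control), that diet with 10% red tomato powder (red), or that diet with 10% tangerine tomato powder (tangerine). Macronutrients were matched between the diets, and no group carried a genetic change or a drug. Each diet had 12 libraries, read here as 12 separate mice from the mouse number in each label, although the labels give 11 to 12 mice a group.

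The urea cycle turns toxic ammonia into urea, and the liver is the organ that runs the whole of it. Carbamoyl phosphate synthetase (Cps1) and ornithine transcarbamylase (Otc) work in the mitochondrion, where ammonia becomes citrulline. Argininosuccinate synthetase (Ass1), argininosuccinate lyase (Asl) and arginase (Arg1) work in the cytosol, where citrulline receives a second nitrogen from aspartate and is split into urea and ornithine. In rodent liver these enzymes are more abundant in hepatocytes near the portal vein than near the central vein, and their transcripts are known to follow protein intake, glucagon and glucocorticoids.

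Ass1 came with a copy that bears on every value given for it. The identifier Gm5424 is annotated as a processed pseudogene on chromosome 10 (chr10:62071123-62072362, plus strand, GRCm38), while Ass1 itself lies on chromosome 2 (chr2:31470207-31520672, plus strand). The copy was aligned to the Ass1 transcript over 1240 bases with 99.5% identity and no gaps, and it covers all 1236 coding bases. The 6 mismatches, counted from the first coding base with the Ass1 base first, were T399C, T429C, A520T, G656C, T1011C and C1143T. Coding bases 310 to 429 are shown, with differences in capitals. They hold 2 of the 6 differences, and no other stretch of 120 coding bases holds more.
Ass1: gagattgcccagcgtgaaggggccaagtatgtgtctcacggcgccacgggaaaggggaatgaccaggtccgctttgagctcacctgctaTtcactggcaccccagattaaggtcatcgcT
Gm5424: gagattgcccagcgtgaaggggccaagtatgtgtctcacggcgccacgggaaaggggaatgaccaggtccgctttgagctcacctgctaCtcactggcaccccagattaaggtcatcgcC
Over the 36 libraries 2818338 reads were counted for Gm5424 and 435118 for Ass1, so that the pseudogene held 86.6% of the reads of both. How reads shared by both were assigned is not given in the sources used here, so the Ass1 row is uncertain and the sum of both rows is given beside it. Glud1 has a shorter copy, Glud-ps on chromosome 7 (chr7:125075351-125076007), 97.6% identical over 656 bases, which held 6.64% of the reads of both. Summing Glud1 with its copies changed no call for Glud1.

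Promoter sequence was at hand for 7 of the 10 members, as the 250 bases before the RefSeq gene start (GRCm38.p6, with 187 bases for Ass1). It is shown for Got1 and Slc25a13, which held matches to the motifs below, and for Otc, an example of those without. Capitals mark matches, on either strand, to any of 6 motifs: the E-box CACGTG, the D-box TTANGTAA, the ROR element TAGGTCA, the TATA box TATAAA, the CCAAT box CCAAT and the cAMP response element core TGACG. Got1 is at chr19:43524606-43524855 on the minus strand, Slc25a13 at chr6:6217174-6217423 on the minus strand and Otc at chrX:10252055-10252304 on the plus strand.
Got1: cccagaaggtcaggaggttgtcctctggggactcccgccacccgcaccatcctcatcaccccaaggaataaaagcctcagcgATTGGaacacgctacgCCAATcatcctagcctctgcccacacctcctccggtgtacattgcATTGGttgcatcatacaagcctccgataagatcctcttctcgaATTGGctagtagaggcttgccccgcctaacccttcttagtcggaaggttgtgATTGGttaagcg
Slc25a13: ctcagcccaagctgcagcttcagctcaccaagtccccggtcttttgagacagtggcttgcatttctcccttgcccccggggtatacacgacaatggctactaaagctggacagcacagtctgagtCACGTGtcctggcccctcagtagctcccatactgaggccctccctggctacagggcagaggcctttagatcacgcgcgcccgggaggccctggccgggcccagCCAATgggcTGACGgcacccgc
Otc: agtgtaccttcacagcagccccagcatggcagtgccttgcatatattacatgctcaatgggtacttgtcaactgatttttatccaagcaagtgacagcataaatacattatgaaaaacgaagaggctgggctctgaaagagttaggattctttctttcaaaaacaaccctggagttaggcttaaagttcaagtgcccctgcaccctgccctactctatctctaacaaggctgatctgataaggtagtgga
The Got1 window held 5 CCAAT boxes, 4 of them read on the opposite strand as ATTGG. Slc25a13 held 1 E-box, 1 CCAAT box and 1 TGACG. The windows of Otc, Nags, Ass1, Slc25a15 and Glud1 held none of the 6 motifs. Among 32851 windows of 250 bases before mouse gene starts, 33.8% held a CCAAT box, 17.8% TGACG, 12.4% a TATA box, 6.02% an E-box, 2.23% the ROR element and 2.06% the D-box. These matches describe the letters in the window and were not tested for binding.

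Library totals ran from 21290169 to 33810573 counts, with overlapping ranges in the 3 diets. The hepatocyte list (5 of 6 marker genes found) summed to between 82092 and 123223 CPM (counts per library scaled to a common depth) in every library, so all 36 libraries carried the signal of their labelled tissue. A T cell list of 5 genes summed to 158.7 CPM in Red 186 and to at most 4.25 in the other 35 libraries, and a pancreatic acinar list of 9 genes, Cela2a of which was at 0 in all libraries, summed to 12.7 in Tangerine 216 and to at most 0.396 elsewhere. Calls of single genes that are lost without Red 186 and Tangerine 216 are given with and without them. A cholangiocyte list of 5 genes summed to 111 in Tangerine 192 and to 49.4 in the next library, Red 199. An intestinal epithelium list of 6 genes, Fabp2 of which was at 0 throughout, summed to 4.45 in Control 122 and 3.76 in Control 183. The control median of that list was 0.108. A kidney tubule list of 5 genes summed to 7.36 in Tangerine 198 and to 3.61 in the next, Tangerine 217. A change in a bulk liver can come from fewer cells of a type or from less RNA per cell, and these cannot be told apart here.

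On a scale that allows comparison between genes, RPKM (CPM divided by the exon length), Cps1 was the most abundant member at a mean of 709 and Nags the least at 19.5. Between them the means were 563 for Arg1, 256 for Glud1, 185 for Ass1, 116 for Got1, 111 for Otc, 82.4 for Asl, 67.3 for Slc25a15 and 58.4 for Slc25a13. Arg1 exceeded Glud1 in 36 of 36 livers and Slc25a13 exceeded Nags in 36 of 36, with no overlap of ranges. Got1 and Otc could not be ordered, since Got1 was the higher in 17 of 36 livers. Ass1 together with Gm5424, over the length of Ass1, reached 1383 ± 232 RPKM (SD over 36 livers), above the Cps1 mean. Cps1 ranked 39th in counts among the 14068 genes tested, and Nags ranked 2149th.

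**Figure D1:**
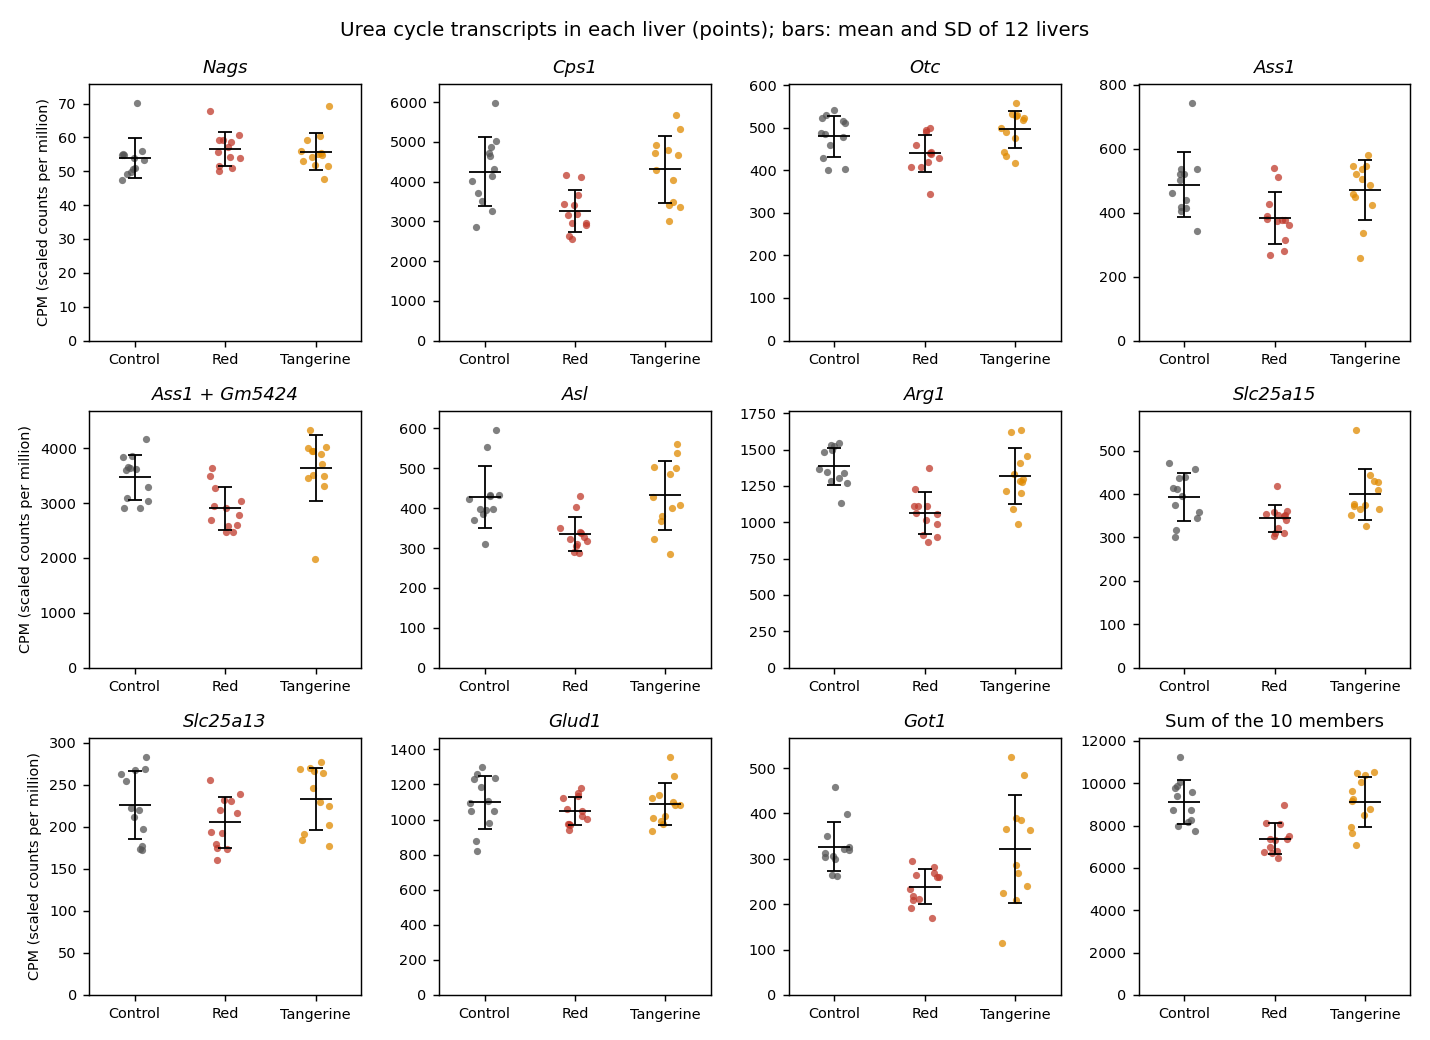
CPM (vertical axes, each from 0) of the 10 urea cycle genes, of Ass1 summed with Gm5424 and of all 10 genes summed, by diet, with 12 livers a diet as points and bars for mean ± SD. Red livers sit low for Arg1, Cps1, Asl, Got1 and the sum, with 10 of 12 red livers below every control liver for Arg1, while Nags and Glud1 overlap between diets.

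Red tomato livers held fewer urea cycle transcripts than control livers in total. The 10 genes summed to 7765 to 11242 CPM (median 9085) in control livers, to 6457 to 8953 (median 7344) in red livers and to 7079 to 10556 (median 9207) in tangerine livers. All 12 red livers were below the control median and 9 of 12 were below every control liver, while the tangerine livers overlapped the control range at all but its upper end. The mean was 19.2% lower in red than in control livers and 0.105% lower in tangerine than in control livers, given without a test. As a share of total counts the red mean was 16.6% below the control mean, and 8 of 12 red livers were below every control liver. Cps1 makes up the largest part of the sum, which takes Ass1 as deposited. Gm5424, left out of the sum, had means of 2981, 2524 and 3167 CPM in control, red and tangerine livers.

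Among single genes, Arg1 was the member that edgeR called lower in red against control livers, and other tools called more. The edgeR quasi-likelihood test, with Benjamini-Hochberg adjustment over all 14068 genes, called 1 of 10 members lower (Arg1), beside a background of 0.0995% of all genes called lower and 0.149% called in either direction. At an unadjusted p under 0.05, 7 of 10 members were lower and 0 higher, beside 6.63% of all genes lower and 6.67% higher. The estimate was negative for 9 of 10 members, all but Nags, with a median log2 fold change of -0.27 where the median of all genes was -0.00. DESeq2 called Arg1, Cps1 (adjusted p = 0.0441) and Asl (0.0420) lower. With limma-voom, Arg1, Cps1 (adjusted p = 0.00842), Asl (0.0213), Slc25a15 (0.0209) and Got1 (0.0469) were called lower. The share called in either direction was 1.29% of the 12704 genes given an adjusted p by DESeq2 and 10.5% of all genes in limma-voom.

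Arg1 encodes arginase, the enzyme that releases urea. It ran from 1133 to 1544 CPM (median 1354) in control livers, from 864 to 1374 (median 1061) in red livers and from 991 to 1636 (median 1288) in tangerine livers. Of the red livers, 10 of 12 lay below every control liver, and the lowest of all was Red 186. The red livers held 0.767 times the control level of Arg1 (95% interval 0.690 to 0.853; log2 fold change -0.38 ± 0.075 SE, edgeR adjusted p = 0.0167). Leaving out each of the 36 libraries in turn kept the adjusted p between 0.00363 and 0.0468, and leaving out Red 186 together with Tangerine 216 gave 0.0170. With a clock score of each liver as a covariate, described further on, the estimate for Arg1 was -0.23 and the call was lost (adjusted p = 0.295). The same covariate lowered the calls over all genes from 21 to 3.

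Cps1, the enzyme that fixes ammonia in the first step, ran from 2859 to 5986 CPM (median 4222) in control livers, from 2558 to 4158 (median 3173) in red livers and from 3008 to 5676 (median 4481) in tangerine livers. All 12 red livers were below the control median, but only 2 were below every control liver. The estimate for Cps1 in red livers against control livers was -0.38 ± 0.108 (log2, SE), as large as that of Arg1, and did not pass the test (edgeR adjusted p = 0.101). Cps1 was also more variable than Arg1 between mice, with a biological coefficient of variation of 18.8% against 13.4%, where the median of all genes was 15.2%.

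Otc makes citrulline in the mitochondrion and differed little. It ran from 399.5 to 541 CPM (median 486) in control livers, from 345 to 499.6 (median 439) in red livers and from 418 to 559 (median 509) in tangerine livers. The red estimate for Otc against control livers was -0.13 ± 0.060 (log2, SE; edgeR adjusted p = 0.361), and the ranges overlapped widely. Nags, whose product N-acetylglutamate switches Cps1 on, had means of 53.8 ± 5.86, 56.5 ± 5.01 and 55.7 ± 5.42 CPM (SD, n = 12 each) in control, red and tangerine livers. It was the member with a positive estimate in red against control livers, 0.07 ± 0.057 (SE; edgeR adjusted p = 0.628).

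The cytosolic enzymes before arginase gave estimates near that of Arg1 without passing the edgeR test. Asl ran from 310.5 to 596 CPM (median 411) in control livers, from 288 to 430.3 (median 324) in red livers and from 285 to 561 (median 418) in tangerine livers. Of the red livers, 11 of 12 were below the control median of Asl and 4 were below every control liver. The log2 fold change of Asl was -0.35 ± 0.098 (SE; edgeR adjusted p = 0.0975).

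Ass1 as deposited ran from 342 to 744 CPM (median 482) in control livers, from 267 to 539 (median 377) in red livers and from 259 to 579 (median 496) in tangerine livers. Ass1 summed with Gm5424 ran from 2906 to 4166 (median 3606), from 2467 to 3639 (median 2849) and from 1986 to 4335 (median 3807) in the same order. Red livers were at the low end on both measures, and the lowest liver on both was Tangerine 226. Estimates for red against control livers were -0.34 ± 0.119 (SE; edgeR adjusted p = 0.181) for Ass1 alone and -0.25 ± 0.087 (SE; adjusted p = 0.180) for the sum, so neither passed.

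The carriers gave smaller estimates. Slc25a15, which exchanges ornithine for citrulline across the inner mitochondrial membrane, had means of 393 ± 54.6, 344 ± 31.0 and 399 ± 58.5 CPM (SD, n = 12 each) in control, red and tangerine livers. Slc25a15 in red against control livers gave -0.19 ± 0.074 (SE; edgeR adjusted p = 0.242). Slc25a13, or citrin, exports aspartate to the cytosol, and had means of 226 ± 40.5, 205.5 ± 30.4 and 233 ± 37.0 CPM in the same order, with an estimate of -0.14 ± 0.094 (SE; edgeR adjusted p = 0.553). The ranges of both carriers overlapped between all diets.

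Glud1, glutamate dehydrogenase, which releases ammonia from glutamate in the mitochondrion, was nearly level. Its means were 1099 ± 152, 1048 ± 80.7 and 1088 ± 120.0 CPM (SD, n = 12 each), and its estimate in red against control livers was -0.07 ± 0.068 (SE; edgeR adjusted p = 0.698).

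Got1, the cytosolic aspartate aminotransferase, had the largest estimate and the largest spread of the members. It ran from 263 to 458 CPM (median 316) in control livers, from 170.0 to 294 (median 246) in red livers and from 114 to 525 (median 324) in tangerine livers. All 12 red livers were below the control median and 8 were below every control liver, whereas the tangerine livers held both the lowest value of all (Tangerine 226) and the highest (Tangerine 128), 4.61-fold apart. Got1 in red against control livers gave a log2 fold change of -0.46 ± 0.151 (SE) and did not pass (edgeR adjusted p = 0.163). With the tangerine livers left out of the fit, and so out of the estimate of spread, Got1 was called lower in red livers at -0.45 (adjusted p = 0.0379). The biological coefficient of variation of Got1 was 25.7%, the highest of the 10.

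Tangerine tomato livers were not distinguished from control livers at any member. The edgeR test called 0 of 10 members, 0 of 10 had an unadjusted p under 0.05, and DESeq2 and limma-voom also called 0. The background was low as well: edgeR and limma-voom each called 0.0142% of all genes. DESeq2 called 0.0828% of the 7249 genes to which it gave an adjusted p. In edgeR, 5.47% of all genes had an unadjusted p under 0.05. The log2 fold changes of the members lay between -0.07 (Arg1) and 0.05, with a median of 0.02. The 95% intervals bound the fold of tangerine against control between 0.856 and 1.06 for Arg1, between 0.870 and 1.18 for Cps1, between 0.882 and 1.16 for Asl and between 0.795 and 1.21 for Got1.

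Tangerine and red livers were then compared directly. Cps1, Asl and Arg1 were higher in tangerine livers by the edgeR test, which is 3 of 10 members beside 0.732% of all genes called higher and 1.71% called in either direction. At an unadjusted p under 0.05, 7 of 10 members were higher and 0 lower, beside 6.6% of all genes higher, 8.52% lower and 15.1% in either direction. This comparison and that of red with control share the red livers, so the sets of estimates are not independent.

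Cps1 was 1.32 times as high in tangerine as in red livers (95% interval 1.13 to 1.54; log2 fold change 0.40 ± 0.108 SE, edgeR adjusted p = 0.0446), and 7 of 12 tangerine livers were above every red liver. Asl was 1.29 times as high (95% interval 1.12 to 1.48; log2 fold change 0.37 ± 0.098 SE, adjusted p = 0.0415). Arg1 was 1.24 times as high (95% interval 1.12 to 1.38; log2 fold change 0.31 ± 0.075 SE, adjusted p = 0.0251), and 11 of 12 tangerine livers were above the red median. Ass1 summed with Gm5424 was 1.25 times as high (log2 fold change 0.32 ± 0.087 SE, edgeR adjusted p = 0.0448). Gm5424 alone, which holds most reads of this sum, gave 0.33 ± 0.086 (adjusted p = 0.0379). Ass1 as deposited gave 0.30 ± 0.119 and did not pass (adjusted p = 0.211). The sum was not refitted with a covariate or with libraries left out. The other estimates were 0.43 for Got1, 0.21 for Slc25a15, 0.18 for Slc25a13, 0.17 for Otc, 0.05 for Glud1 and -0.02 for Nags, with edgeR adjusted p-values from 0.134 to 0.895.

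These 3 calls stood close to the threshold. With the clock score as a covariate the log2 estimates were 0.19 for Cps1 (edgeR adjusted p = 0.521), 0.17 for Asl (adjusted p = 0.538) and 0.12 for Arg1 (adjusted p = 0.521), and all 3 calls were lost. With the mouse number as a covariate they were lost as well, at adjusted p-values of 0.0966, 0.0825 and 0.0599 in that order. Over all genes, calls fell from 241 to 0 with the clock score and to 32 with the mouse number. Mouse numbers ran from 133 to 204 in red livers and from 128 to 242 in tangerine livers, so they overlapped only in part. Leaving out Tangerine 216 gave Arg1 an adjusted p of 0.0649, and leaving out Tangerine 217 gave 0.0565. Cps1 lost its call without any one of 16 of the 36 libraries, with adjusted p up to 0.102 (Tangerine 128, 195, 197, 198, 215, 216 and 217 and Red 133, 156, 157, 166, 175, 177, 186, 199 and 202). Asl lost it without any one of 15, also with adjusted p up to 0.102 (Tangerine 128, 160, 198, 215, 216, 217 and 242 and Red 133, 156, 157, 166, 175, 186, 199 and 202). Without Tangerine 226, Got1 gained a call at 0.51 (adjusted p = 0.0231). With Red 186 and Tangerine 216 both left out, the adjusted p-values were 0.112 for Cps1, 0.141 for Asl and 0.0967 for Arg1.

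**Figure D2:**
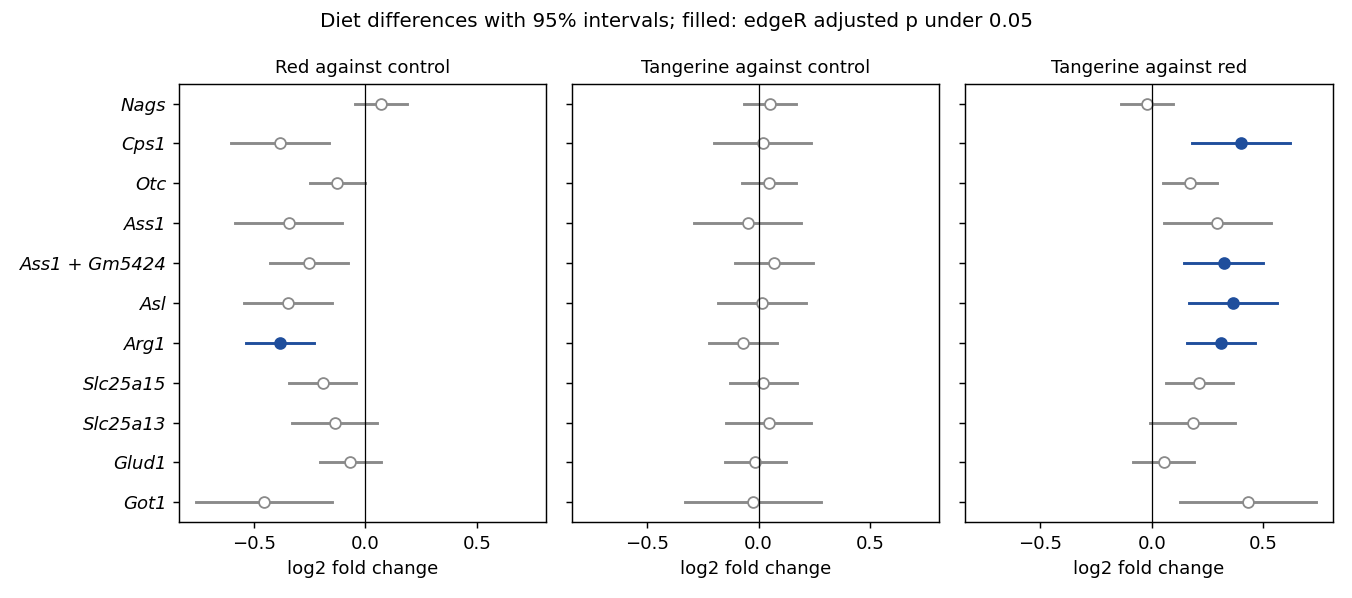
Log2 fold changes (horizontal axis) with 95% intervals for the 10 urea cycle genes and for Ass1 summed with Gm5424, in 3 diet comparisons of 12 livers each; filled blue points passed the edgeR adjusted p of 0.05 and open grey points did not. Arg1 is filled on the left, none in the middle, and Cps1, Asl, Arg1 and the Ass1 sum on the right.

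A single test for any difference among the 3 diets called 1 of 10 members, Arg1 (edgeR adjusted p = 0.0180), beside 1.18% of all genes. Asl (adjusted p = 0.0589) and Cps1 (adjusted p = 0.0609) did not pass it.

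Genes around the cycle were followed in a list of 62, of which 53 were tested: enzymes and carriers on the aspartate and malate side, handlers of ammonia, bicarbonate and glutamine, users and transporters of arginine and ornithine, enzymes that break down amino acids, and known regulators. In red against control livers edgeR called 0 of 53, with 16 lower and 1 higher at an unadjusted p under 0.05 beside 6.63% and 6.67% of all genes. DESeq2 called 3 of the list beside 1.29% of the 12704 genes to which it gave an adjusted p. The limma-voom fit called 11 beside 10.5% of all genes. In tangerine against control livers edgeR called 0 of 53, with 1 lower and 3 higher at an unadjusted p under 0.05 beside 3.16% and 2.32% of all genes, and DESeq2 and limma-voom called 0. In tangerine against red livers edgeR called 7 of 53 higher and 0 lower, beside 0.732% and 0.981% of all genes, and the median log2 fold change of the list was 0.13 where that of all genes was -0.00.

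Enzymes of amino acid breakdown gave 4 of those 7 calls, out of 19 tested. Prodh, proline dehydrogenase, ran from 99.2 to 216 CPM (median 157) in control livers, from 105 to 159.8 (median 126) in red livers and from 150.4 to 249.7 (median 171) in tangerine livers. It had the largest called difference of the list, 0.56 ± 0.111 (SE; edgeR adjusted p = 0.00909), with little overlap between red and tangerine livers. Gpt, alanine aminotransferase, was higher by 0.34 ± 0.083 on the log2 scale (SE; edgeR adjusted p = 0.0251), and Bckdhb, a subunit of the branched-chain keto acid dehydrogenase, by 0.15 ± 0.036 (SE; adjusted p = 0.0271).

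The amino acid carriers Slc38a3 and Slc38a4 gave 2 further calls, out of 7 tested handlers of ammonia, bicarbonate and glutamine. Slc38a3, a glutamine transporter, was higher in tangerine than in red livers by 0.45 ± 0.095 (SE; edgeR adjusted p = 0.0146). Slc38a4, a carrier of neutral amino acids, was higher by 0.37 ± 0.099 (SE; adjusted p = 0.0416). Gls2, the liver glutaminase, did not pass, at 0.26 (adjusted p = 0.0944).

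Of 12 regulators tested, Cebpa was the 1 called, higher in tangerine than in red livers by 0.31 ± 0.085 (SE; edgeR adjusted p = 0.0452). Cebpa encodes a transcription factor of hepatocytes. Cebpb gave 0.42 (adjusted p = 0.408) and Ppargc1a 0.35 (adjusted p = 0.319).

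The 7 calls of the list did not hold alike. With the clock score as a covariate none of them passed (edgeR, 9 of 53 at an unadjusted p under 0.05), and the estimates of the 6 genes named here were 0.42 for Prodh (adjusted p = 0.218), 0.16 for Gpt (0.478), 0.11 for Bckdhb (0.304), 0.14 for Slc38a3 (0.524), 0.15 for Slc38a4 (0.573) and 0.10 for Cebpa (0.674). With the mouse number as a covariate Prodh alone of the list passed (adjusted p = 0.0383), and the other 5 named gave 0.0528 to 0.108. Without Red 186 and Tangerine 216, Prodh (adjusted p = 0.0261) and Slc38a3 (0.0477) passed, while Gpt (0.0928), Bckdhb (0.0795), Slc38a4 (0.135) and Cebpa (0.126) did not. With no filter on low counts Slc38a4 (0.0526), Bckdhb (0.108) and Cebpa (0.0578) did not pass. Over all genes, calls in this comparison fell from 241 to 0 with the clock score and to 32 with the mouse number.

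Prodh and Slc38a3 passed in all 36 fits that left out 1 library, with adjusted p up to 0.0252 and 0.0372. Gpt lost its call without Red 202 or Tangerine 216, 217 or 242, with adjusted p up to 0.0618. Bckdhb lost it without Red 133 or 202 or Tangerine 215 or 216, with adjusted p up to 0.0597. Slc38a4 lost it in 14 of the 36 fits, with adjusted p up to 0.0988 (Tangerine 128, 198, 215, 216, 217 and 225 and Red 133, 156, 157, 166, 175, 186, 199 and 202). Cebpa lost it in 17, with adjusted p up to 0.104 (Tangerine 192, 198, 215, 216, 217, 225, 226 and 242 and Red 133, 156, 157, 175, 186, 199, 202, 203 and 204).

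No call was made among 8 tested genes of arginine and ornithine or among 7 of the aspartate and malate side. Slc7a2, a carrier of arginine and other cationic amino acids, gave 0.59 ± 0.169 in tangerine against red livers (SE; edgeR adjusted p = 0.0606), and Aldh18a1, which makes the precursor of proline and ornithine, gave 0.58 ± 0.190 (SE; adjusted p = 0.112). Agmat, agmatinase, gave 0.17 (adjusted p = 0.249). Fh1, fumarate hydratase, which takes up the fumarate that Asl releases, gave 0.22 ± 0.062 (SE; adjusted p = 0.0502) and, in red against control livers, -0.23 ± 0.062 (SE; adjusted p = 0.0754). Slc25a11 gave 0.14 (adjusted p = 0.182) and Slc25a22, a mitochondrial glutamate carrier, -0.16 (adjusted p = 0.504).

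The 9 listed genes that were not tested include Oat, Car5a, Hpd, Aldh4a1 and Slc25a2, which are listed at 0 in all 36 libraries. B2m, a gene that nearly all cells express, chosen for this check after its values were seen, is listed at 0 as well, so a 0 in this table is reported only as listed.

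**Figure D3:**
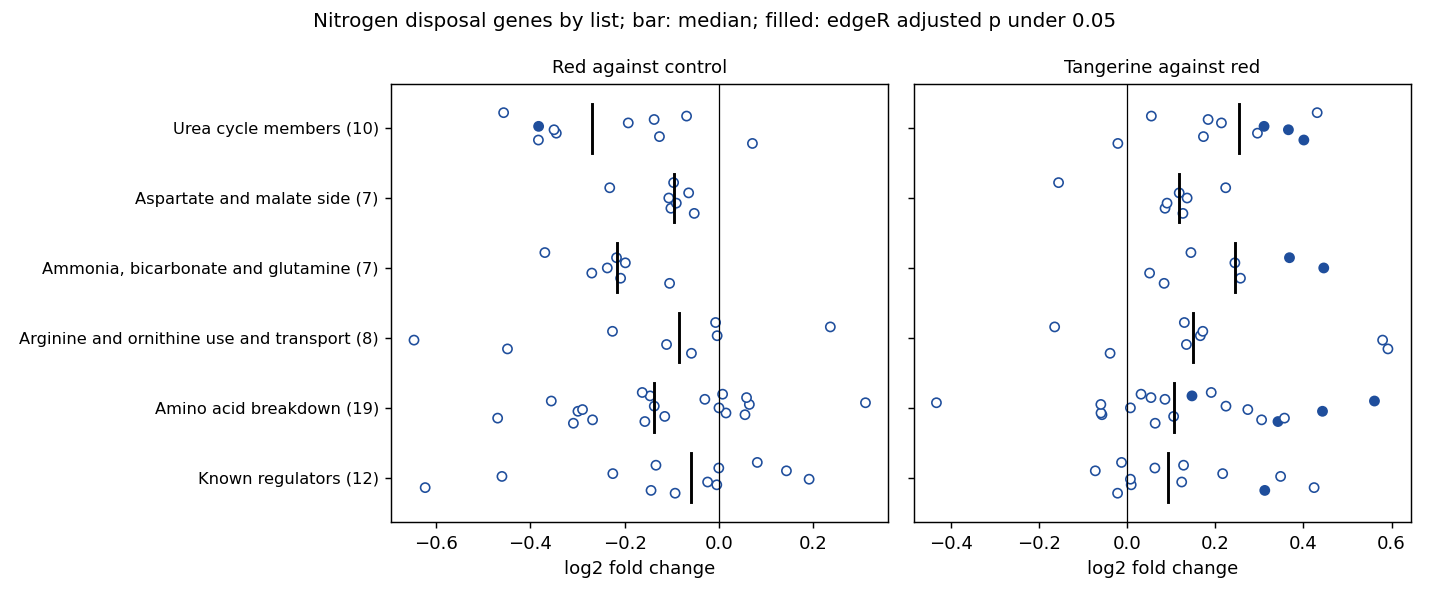
Log2 fold changes of the tested genes around the cycle by list, in the comparisons of red with control livers and of tangerine with red livers, with 1 point a gene and filled points for an edgeR adjusted p under 0.05. No point outside the 10 members is filled in the first comparison, and 7 outside the members are filled in the second, all above 0; short bars mark list medians.

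Mice of one diet also differed from each other, and members varied together in sets. Across the 36 livers with the diet mean removed, 10 of the 45 pairs of members correlated at an adjusted p under 0.05 (permutation test, two-sided, 100000 resamples, Benjamini-Hochberg over the 45 pairs), and the median r of all pairs was 0.20. The 3 cytosolic enzymes formed the closest set. Ass1 and Arg1 gave Pearson's r = 0.75 and Spearman's rho = 0.70 (permutation p = 1e-05, the smallest the resamples can give, adjusted p = 0.00015). Asl and Arg1 gave r = 0.74 and rho = 0.73 (adjusted permutation p = 0.00015), and Ass1 and Asl gave r = 0.70 and rho = 0.79 (adjusted permutation p = 0.00015).

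The 3 relations held without the 2 livers farthest from the median of the first gene, at r = 0.71, 0.73 and 0.73 in that order. Within control, red and tangerine livers, r was 0.59, 0.86 and 0.76 for Ass1 with Arg1, 0.68, 0.82 and 0.77 for Asl with Arg1, and 0.47, 0.81 and 0.84 for Ass1 with Asl. With Ass1 and Gm5424 summed, r was 0.67 with Arg1 and 0.61 with Asl. Cps1 correlated with Arg1 at r = 0.54 and rho = 0.54 (adjusted permutation p = 0.00747; r = 0.62 without the 2 farthest livers; 0.31, 0.41 and 0.81 within control, red and tangerine livers).

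A second set held Otc, Slc25a15, Slc25a13 and Glud1, whose products all act in the mitochondrion or its inner membrane. Otc and Slc25a15 gave r = 0.59 and rho = 0.59 (adjusted permutation p = 0.00214; r = 0.54 without the 2 farthest livers; 0.84, 0.60 and 0.32 within control, red and tangerine livers). Slc25a15 and Glud1 gave r = 0.57 and rho = 0.53 (adjusted permutation p = 0.00804), with 0.52 without the 2 farthest livers, but r was 0.80, 0.05 and 0.48 within control, red and tangerine livers. Slc25a13 and Glud1 gave r = 0.55 and rho = 0.52 (adjusted permutation p = 0.00772; 0.61 without the 2 farthest livers; 0.75, 0.45 and 0.35 within the diets). Otc and Slc25a13 gave r = 0.50 and rho = 0.55 (adjusted permutation p = 0.0138; 0.58; 0.72, 0.19 and 0.55 within the diets), and Otc and Glud1 gave r = 0.50 and rho = 0.48 (adjusted permutation p = 0.0138; 0.45; 0.77, 0.48 and 0.15 within the diets). The carriers Slc25a15 and Slc25a13 did not pass as a pair with each other. Cps1 and Nags, which also act in the mitochondrion, had no pair in this set that passed. Ass1 with Got1 gave r = 0.48 (adjusted permutation p = 0.0310), but rho was 0.26 and r was 0.31 without Tangerine 226 and Control 245, on which it rests. With each gene as a share of total counts in place of scaled counts the median r was 0.089 and 5 pairs, not 8, exceeded 0.5.

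**Figure D4:**
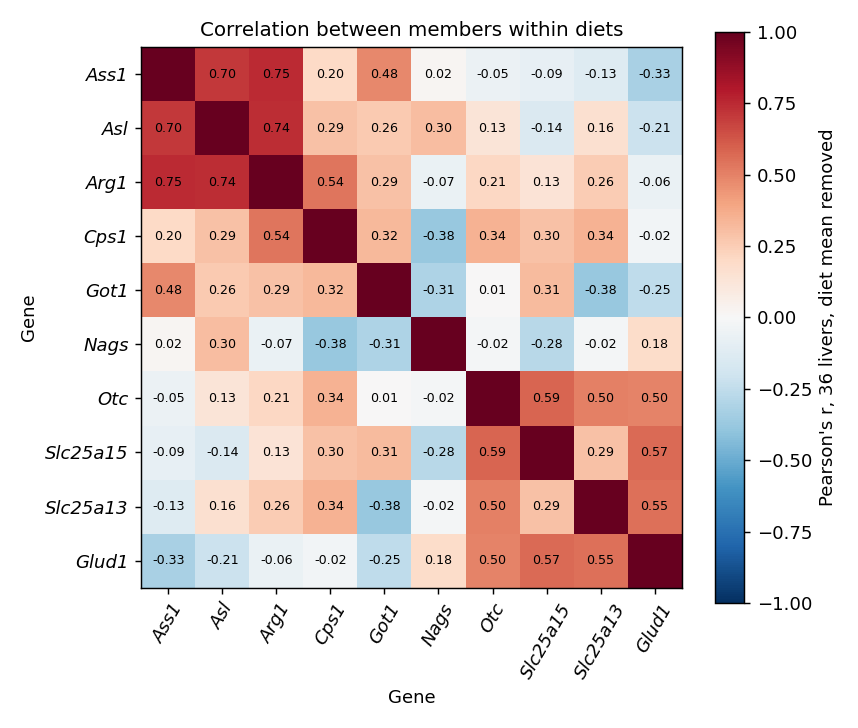
Pearson's r between the 10 urea cycle genes across 36 livers after removal of the diet mean, with red for positive and blue for negative values. Ass1, Asl and Arg1 form 1 block of r from 0.70 to 0.75, and Otc, Slc25a15, Slc25a13 and Glud1 a weaker one. In the weaker block the pair of Slc25a15 with Slc25a13 did not pass the permutation test after adjustment.

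The genes over the whole table whose levels followed each member most closely differed by member. These are descriptions over 36 livers among 10967 genes, with no test. Arg1 was closest to Klf15 (r = 0.81), a transcription factor, to Per1 (r = 0.80), a component of the circadian clock, and to the nucleoside transporter Slc29a1 (r = 0.80). Ass1 was closest to Slc29a1 (r = 0.75), Gm5424 (r = 0.75) and Arg1 (r = 0.75), of which Gm5424 is its near-identical copy. Asl was closest to Crcp (r = 0.81), its neighbour on the other strand of chromosome 5, to Gpt2 (r = 0.80) and to Gm44421 (r = 0.76). Cps1 was close to Sbno1 (r = 0.78) and Man2a1 (r = 0.78), and Otc to Etfa (r = 0.81), Dbt (r = 0.81) and Sult2a8 (r = 0.78). Slc25a13 had the highest values of the members, with Slc16a12 (r = 0.89), Hpgd (r = 0.89) and Ndfip1 (r = 0.88). Glud1 was closest to Sumf1, Txndc15 and Tmem59 (r from 0.83 to 0.84) and Slc25a15 to Chic1, Cd164 and Tfpi2 (r from 0.76 to 0.79). Got1 was closest to Pnpla5 (r = 0.76), Gm49513 (r = 0.74) and Pnpla3 (r = 0.72), and Nags to Gpx1, Rab24 and Tysnd1 (r = 0.75 each).

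A score of circadian clock transcripts was lower on average in red livers and moved with some members. Its difference between diets was not tested. A clock score, the first principal component of 12 clock genes (70.3% of their variance) and signed so that Dbp is positive, was 0.841 ± 2.71 in control livers (SD, n = 12), -2.48 ± 2.14 in red livers and 1.64 ± 2.13 in tangerine livers. The ranges were -4.95 to 3.38, -5.26 to 1.21 and -0.999 to 4.85, so red livers sat low with overlap. Time of tissue collection is not given in the sources used here. Of 30 relations between the 10 members and 3 scores, each over 36 livers with the diet mean removed, Arg1 with the clock score gave r = 0.58 and rho = 0.62 (permutation p = 0.00018, adjusted p = 0.0025; r = 0.64 without the 2 farthest livers; 0.64, 0.66 and 0.53 within control, red and tangerine livers).

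Asl with the clock score gave r = 0.47 and rho = 0.52 (adjusted permutation p = 0.0317), with 0.40, 0.71 and 0.43 within the diets and 0.50 without the 2 farthest livers. Cps1 gave r = 0.44 and rho = 0.48 (adjusted permutation p = 0.0466), with 0.40, 0.63 and 0.37 within the diets and 0.47 without the 2 farthest livers. Otc gave r = -0.00 with the score, and Got1 gave r = -0.24 (adjusted permutation p = 0.241), with -0.75 within control livers. These 3 members, Arg1, Asl and Cps1, are those that edgeR called between diets, while Slc25a13 gave r = 0.42 and rho = 0.44 with the score (adjusted permutation p = 0.0633). With the score as a covariate those calls were lost. Calls over all genes fell too, from 241 to 0 in tangerine against red livers and from 21 to 3 in red against control livers. The tangerine against red estimate of Got1 with this covariate was 0.59, also not called (edgeR adjusted p = 0.206). What part the clock has in the diet differences was not tested beyond these fits.

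**Figure D5:**
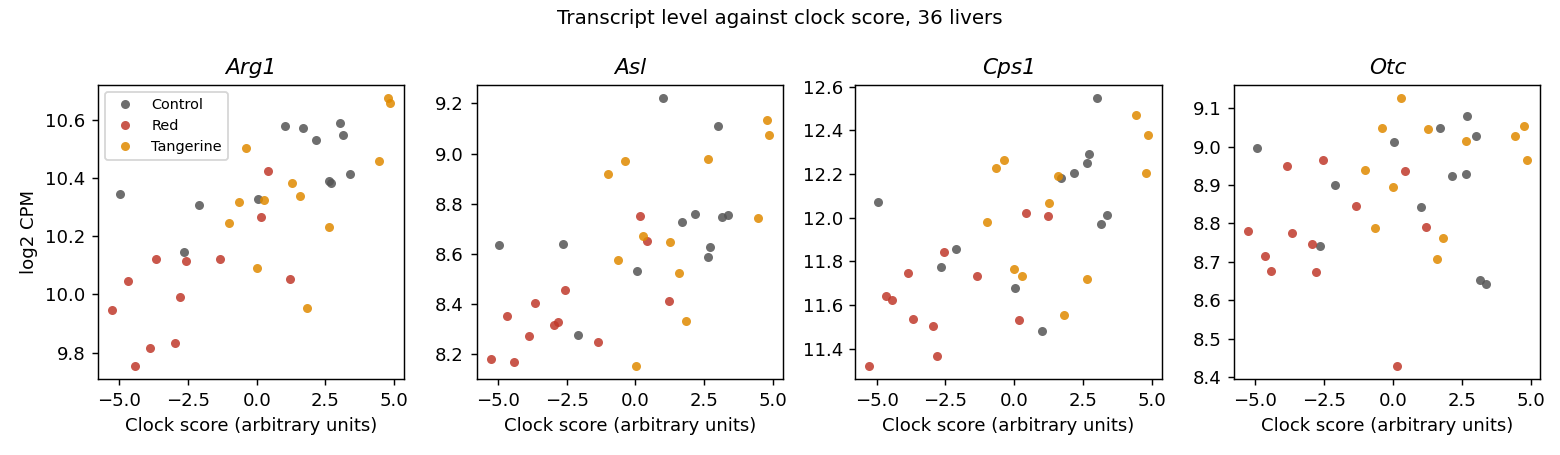
Log2 CPM of Arg1, Asl, Cps1 and Otc (vertical axes, not from 0) against the clock score in arbitrary units, with 1 point a liver coloured by diet. Arg1, Asl and Cps1 are higher at a higher score within the diets, Otc is not, and most red livers have a score below 0.

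Scores of transcripts that mark hepatocytes near the portal or central vein gave another relation. A periportal score, the mean of standardised levels of 10 periportal genes outside the 10 members, was 0.115 ± 0.541, -0.179 ± 0.581 and 0.0637 ± 0.659 in control, red and tangerine livers (SD, n = 12 each). It includes Sds, Hal, Gls2, Uroc1 and Sdsl, which are also in the list of genes around the cycle. It correlated with Asl (r = 0.62, rho = 0.64, adjusted permutation p = 0.0025; r = 0.56 without the 2 farthest livers), with Ass1 (r = 0.58, rho = 0.58, adjusted permutation p = 0.0025; 0.48) and with Arg1 (r = 0.55, rho = 0.55, adjusted permutation p = 0.0087; 0.44). Within control, red and tangerine livers, r was 0.49, 0.54 and 0.78 for Asl, 0.22, 0.81 and 0.65 for Ass1, and 0.33, 0.61 and 0.62 for Arg1. For Ass1 summed with Gm5424 the relation was weaker, at r = 0.37. A pericentral score of 9 genes was -0.134 ± 0.435, -0.179 ± 0.343 and 0.312 ± 0.314 in the same diet order, higher in tangerine livers, and no member correlated with it at an adjusted p under 0.05, with Got1 at r = -0.34 (adjusted permutation p = 0.0864). These pooled values cover relations of opposite sign between diets: within control, red and tangerine livers, r with the pericentral score was 0.67, 0.56 and -0.56 for Arg1, 0.73, 0.46 and -0.42 for Asl, and 0.41, 0.53 and -0.57 for Ass1. The difference between diets in these relations was not tested. The pericentral score likewise includes Glul, Slc1a2 and Rhbg from the list around the cycle. Whether these relations reflect position along the lobule was not tested. The part of either score in the diet differences was not tested.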

How the data were processed

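For the 36 liver libraries the authors deposited raw counts of reads, 1 row a gene, in whole numbers. Per the labels' protocols, libraries were made from total RNA with a directional NEXTflex kit. Per the submitters' processing notes, FastQC, Trimmomatic, edgeR and build GRCm38.p6 were used. The aligner, the counter, the annotation release and the strand setting are not given in the sources used here. Symbols and positions came from GENCODE M21, by identifier (53620 of 53715 matched).

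Counts were tested with edgeR 4.0.16 (R 4.3.3; TMM scaling, filterByExpr with a minimum count of 10 leaving 14068 genes, robust quasi-likelihood F test, diet as the only factor, all 36 libraries in 1 fit), adjusted by Benjamini-Hochberg over all genes at 0.05. DESeq2 1.42.0 and limma 3.58.1 (voom with sample weights) were alternatives, and the fit was tested on simulated counts. Levels in CPM are TMM-scaled, and RPKM uses the union of exons. The edgeR p-values test a diet difference against the spread between libraries. Permutation p-values test a correlation by shuffling livers within each diet. The clock score is a first principal component, because a mean of standardised levels, as planned, would cancel genes of opposite phase. All 10 members were named. Of the list around the cycle, genes past the threshold in any comparison, and up to 3 per group with the smallest p for any diet difference, were named. Single results for some genes that the rule names are not reported here. The members and lists were chosen with earlier results of these data known.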

Additional observations from a re-analysis of the deposited data

How the results depend on the processing

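Counts of calls depended on the tool, the covariates, the filter on low counts and the libraries kept. No member changed sign in a comparison in which it was called. In red against control livers, reported counts were 1 member, 0 genes of the list around the cycle and 21 of all genes. DESeq2 gave 3, 3 and 164, limma-voom 5, 11 and 1482, the clock covariate 0 members (3 at an unadjusted p under 0.05) and 3 genes, a fit of only the diets compared 2 members, and leaving out Red 186 and Tangerine 216 gave 53 genes. In tangerine against red livers, reported counts were 3, 7 and 241. DESeq2 gave 11 listed genes and 391 genes, no filter 1, 4 and 136, limma-voom 12 listed genes and 732 genes, the clock covariate 0, 0 and 0 (3, 9 and 1776 at an unadjusted p under 0.05), the mouse number as a covariate 0, 1 and 32, and leaving out the pair of libraries 0, 3 and 86. In tangerine against control livers 2 genes were called in all, 6 by DESeq2 and 1 with the mouse number. For any diet, 1 member and 166 genes were called, 3 and 383 by DESeq2, 4 and 1111 by limma-voom, 0 and 1 with the clock covariate, 73 genes with the mouse number and 77 without the pair.

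Leaving out each library in turn gave 1 to 1 members and 13 to 127 genes for red against control (127 without Control 189), 0 to 1 listed genes, 0 to 0 members and 2 to 4 genes for tangerine against control, 0 to 4 members, 3 to 9 listed genes and 89 to 301 genes for tangerine against red (89 without Tangerine 216), and 1 to 4 members and 59 to 237 genes for any diet. These fits, and the sums with near-identical copies, were chosen after seeing the data. With copies summed, 4 members were called in tangerine against red livers, counting Ass1 summed with Gm5424. No paired analysis was possible because no mouse number occurs in more than one diet. The cause of these changes was not tested. The least abundant member, Nags, had a mean of at least 53.8 CPM in each diet, and what part depth has in the precision was not tested.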
